A study of Mus musculus with 6 samples.

Results

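Ion channel genes were compared between the Col6a1+ and Col6a1− CAFs of colitis-associated adenomas. The set holds every protein-coding gene of the deposited table whose symbol names a potassium channel subunit (Kcn genes), a voltage-gated calcium (Cacn) or sodium (Scn) channel subunit or a TRP channel of the A, C, M or V subfamilies, together with Abcc8 and Abcc9, the sulfonylurea receptors that assemble with inward rectifiers. These are 156 of the table's 49548 genes, chosen by name and biotype and not by level. By class they are 94 potassium, 26 calcium, 14 sodium and 22 TRP channel genes. Of the 156, 121 reached a total of at least 1 normalized count and were tested, 35 were at 0 in every library, and 40 averaged at least 10 normalized counts.

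The 6 libraries are 3 of Col6a1+ (Col6a1Cre-GFP+) and 3 of Col6a1− (Col6a1Cre-Tomato+) CAFs, sorted from the same kind of tumors of Col6a1-cre, Rosa26-mTmG mice on a C57/BL6 background. All mice had received azoxymethane (AOM), a carcinogen, and then cycles of the colitis agent dextran sodium sulfate (DSS), starting at an age of 8 to 10 weeks per the study's methods. Both groups carry the Cre and the reporter, and no untreated group is used here. GFP marks cells in which the Col6a1 promoter-driven Cre was active at any earlier time, and each library is a pool of tumors from several mice, so a replicate is a pool and not an animal. The sort excluded cells with CD45, EpCAM, CD31 or Ter119 at their surface. Bulk libraries of sorted subsets cannot tell a larger share of cells of a type from more RNA per cell.

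Values are normalized counts, that is reads per gene divided by the authors' size factor, from 3′-end sequencing that reads the 3′ ends of polyadenylated transcripts. From the regular step between low values, 1 read was worth between 0.673 and 1.33 normalized counts in a library, which puts the depth at 2568312 to 4518513 reads. Col6a1+ replicate 1 stood apart, with 14530 genes detected against 18770 to 20511 in the other libraries, and with 49 channel genes detected against 80 to 92. Up to 3 counts cannot be told from 0, so where no library of a group exceeded 3 the fold is given as a lower bound, for counting error only. All 8 pericyte markers examined were called higher in Col6a1+ CAFs, and their summed level was 40718 to 89584 normalized counts per Col6a1+ library and 1127 to 2063 per Col6a1− library. The highest sum was that of Col6a1+ replicate 1, where 1 of the markers had 38662, against 5341 and 6072 in Col6a1+ replicates 2 and 3. In the Col6a1− libraries that marker had 1280, 606 and 715. Of 8 smooth muscle markers 6 were called higher (12499 to 25119 and 487 to 2309). So were 4 of 8 pan-fibroblast markers (38207 to 43043 and 7268 to 14791). Of 10 endothelial markers 2 were called higher, Esam and Tie1, with sums over the 10 of 1232 to 1623 and 433 to 823. Esam made up most of the Col6a1+ sums, with 943, 971 and 1125 against 54, 93 and 38. The median log2 fold change of the 10 was -1.13. Egfl7 had 0, 55 and 88 against 179, 271 and 170, and was not called. Cdh5 had 10, 4 and 9 against 39, 24 and 24, also without a call. The part of pericytes, smooth muscle cells, fibroblasts and endothelial cells in the channel levels was not tested. Of 10 epithelial markers, 7 were called lower in Col6a1+ CAFs, with sums of 5722 to 6365 in Col6a1+ and 19976 to 33607 in Col6a1− libraries. None of these markers was at 0 in any library, Epcam among them with 615 to 4129, although the sort excluded EpCAM. With the replicate number as a block in the limma fit, none of the marker calls passed, with adjusted p-values of 0.0612 to 0.0659 for the pericyte, 0.0612 to 0.197 for the smooth muscle, 0.0612 to 0.0788 for the pan-fibroblast, 0.0612 to 0.144 for the endothelial and 0.0612 to 0.153 for the epithelial markers.

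Potassium channels let potassium leave a cell and hold its membrane potential negative, which keeps voltage-gated calcium channels closed, whereas sodium channels and most TRP channels carry cations inwards and depolarize it. In the mural cells of vessels, pericytes and smooth muscle, this balance sets calcium entry and with it contraction. The ATP-sensitive potassium channel of mural cells is built from a pore subunit encoded by Kcnj8 and a sulfonylurea receptor encoded by Abcc9, and opens when cellular energy falls. In the colonic epithelium, potassium channels of the basolateral membrane, such as Kcnq1 with its partner Kcne3, provide the driving force for chloride secretion.

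Kcnj8 and Abcc9 are neighbours on chromosome 6 of mm10, both on the minus strand, from 142564837 to 142571614 and from 142587862 to 142702315, with 16247 bases between them. Their promoter windows are shown because the genes encode both subunits of 1 channel and were high in the same libraries. Each window runs from 250 bases before to 50 bases after the RefSeq start (build GRCm38.p6, minus strand), at chr6:142571565-142571864 for Kcnj8 and chr6:142702225-142702524 for Abcc9. Capitals mark matches to TGGGAA, the core of the site bound by the Notch effector RBPJ, or to CATTCC, the site of TEAD factors, on either strand.
Kcnj8: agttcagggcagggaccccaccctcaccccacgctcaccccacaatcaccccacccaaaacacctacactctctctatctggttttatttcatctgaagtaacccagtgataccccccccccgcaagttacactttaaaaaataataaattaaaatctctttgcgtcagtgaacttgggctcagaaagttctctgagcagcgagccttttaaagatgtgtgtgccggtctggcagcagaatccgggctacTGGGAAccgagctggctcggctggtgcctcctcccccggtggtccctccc
Abcc9: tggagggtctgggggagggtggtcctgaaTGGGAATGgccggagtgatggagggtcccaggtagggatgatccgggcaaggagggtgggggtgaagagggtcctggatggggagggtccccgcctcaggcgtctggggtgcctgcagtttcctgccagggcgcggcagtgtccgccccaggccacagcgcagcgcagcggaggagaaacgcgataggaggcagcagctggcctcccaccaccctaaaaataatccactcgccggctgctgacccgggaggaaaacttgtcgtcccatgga
TGGGAA was found 1 time in each window, starting at base 251 for Kcnj8 and base 30 for Abcc9, and 25.4% of the 32544 promoter windows in the RefSeq table hold it. CATTCC was found 1 time in the Abcc9 window, on the other strand and overlapping TGGGAA, and 14.6% of windows hold it. The CArG box of smooth muscle genes, which 1.64% of windows hold, and TATAAA, which 13.6% hold, matched in neither window. Of the 16 channel genes called between the subsets, 12 had an entry in that table.

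Of the channel genes, 13 were higher and 3 were lower in Col6a1+ CAFs (limma, adjusted p under 0.05 over all 26402 genes tested). The 11 described here of those higher were Kcnj8, Abcc9, Cacna2d1, Kcne4, Kcnmb1, Trpc1, Trpv2, Cacng7, Scn7a, Kcnk3 and Kcna5, and the 3 lower were Kcne3, Kcnj2 and Kcnq1. They make up 10.7% and 2.48% of the tested channel genes, against 2.66% and 1.96% of all genes tested (4.62% in either direction). At an unadjusted p under 0.05 there were 19 higher and 16 lower, against 6.63% and 9.4% of all genes tested. Among the 40 channel genes that averaged at least 10 normalized counts the same 16 were called, 32.5% higher and 7.5% lower, against 5.15% and 3.67% of the 13515 genes at that level. The median log2 fold change was -0.19 over the 121 tested channel genes, beside -0.27 over all genes tested, and 0.96 over the 40, beside -0.15 for all genes at that level. With the replicate number as a block, whose p is given below as the blocked adjusted p, none of the 16 passed (limma adjusted p between 0.0612 and 0.159), and no gene of the table did. All 16 had an unadjusted p under 0.05 in that fit, but they had been selected by the unblocked fit of the same libraries, so this does not test them anew. When the block was fitted to the 13515 better measured genes alone, 14 channel genes were higher and 5 lower, against 7.26% and 6.44% of those genes. There 15 of the 16 passed and Kcna5 had a limma adjusted p of 0.0502.

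**Figure D1:**
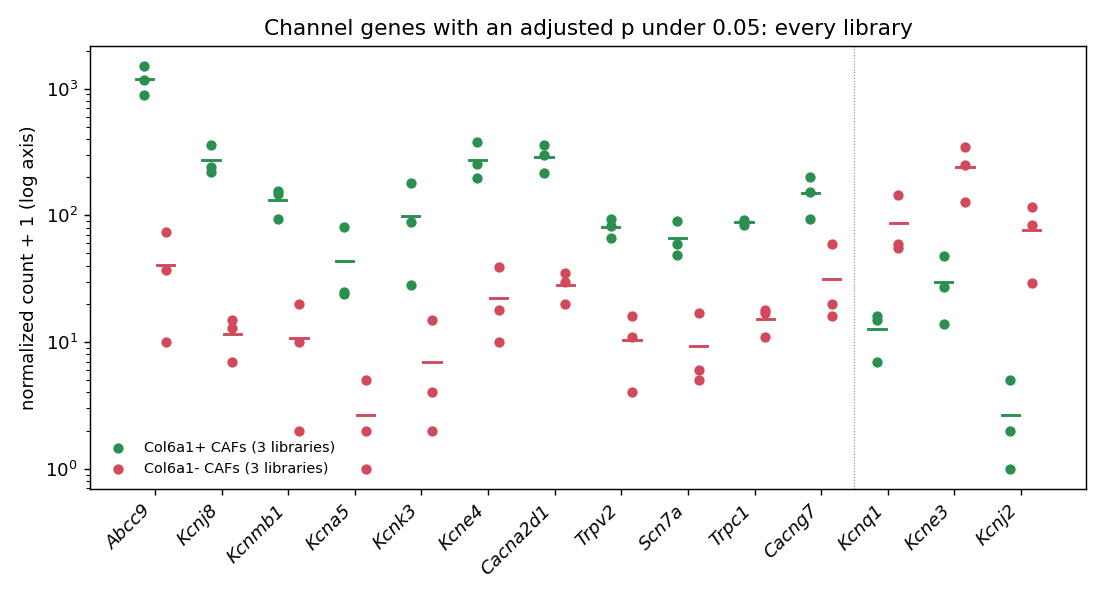
Normalized count plus 1 (log axis) of 14 called channel genes in each of the 6 libraries, ordered by log2 fold change, with points for libraries and lines for group means. For every gene the 3 Col6a1+ and the 3 Col6a1− libraries do not overlap, and the dotted line separates 11 higher from 3 lower genes.

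Without Col6a1+ replicate 1, 6 channel genes were called higher, among them Kcnj8, Abcc9, Cacna2d1, Kcne4 and Trpc1, and 3 were called lower, of which only Kcne3 is among the 3 named above. At an unadjusted p under 0.05, 29 were then higher and 14 lower, against 9.56% and 9.81% of all genes. The log2 fold changes of the 13 were then at least 2.37 and those of the 3 lay between -4.88 and -2.88. Without Col6a1− replicate 1 none of the 16 passed, with limma adjusted p-values from 0.0503 to 0.204, and the counts without the other libraries were 3 to 5 higher and 0 to 1 lower.

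The clearest difference was that of the ATP-sensitive potassium channel. Abcc9 (ENSMUSG00000030249), the regulatory subunit, had 1507, 892 and 1174 normalized counts in the Col6a1+ libraries and 73, 36 and 9 in the Col6a1− libraries. All 3 Col6a1+ libraries lay above all 3 Col6a1− libraries. The means were 1191 ± 308 and 39.3 ± 32.1 (SD, n = 3 each), and the log2 fold change was 5.27 (SE, the standard error, of 0.62, limma adjusted p = 0.00172, blocked adjusted p = 0.0612). Its log2 fold change was 5.92 without Col6a1− replicate 1 and 4.48 without Col6a1− replicate 3. Kcnj8 (ENSMUSG00000030247), the pore subunit, had 357, 219 and 240 in Col6a1+ and 6, 12 and 14 in Col6a1− CAFs. Its groups did not overlap, and Col6a1+ replicate 1 was the highest library for both genes. The log2 fold change of Kcnj8 was 4.59 (SE 0.49, limma adjusted p = 0.00125, blocked adjusted p = 0.0612), between 4.26 and 4.81 when 1 library was left out. The other subunits of this channel type, which form the channel of pancreatic beta cells, were close to absent. Kcnj11 had 0 in each Col6a1+ library and 3, 1 and 0 in the Col6a1− libraries, and Abcc8 had 0, 0 and 1 against 0, 4 and 5. Neither passed the test (limma adjusted p = 0.434 and 0.495).

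Per base of gene model, the scale on which the levels of different genes are set side by side here, Abcc9 was the highest channel gene in Col6a1+ CAFs with 167 ± 43.2 normalized counts per kilobase (SD, n = 3), followed by Kcnj8 with 94.5 ± 25.8 and Kcne4 with 87.8 ± 29.3. The ranges of the last pair overlapped. In Col6a1− CAFs the highest were Kcnk1 with 92.3 ± 13.7 and Kcne3 with 83.6 ± 38.3, which also overlapped, followed by Scn2b with 26.5 ± 3.46. On this scale Abcc9 stood at place 15 and Kcnj8 at place 23 in Col6a1− CAFs. Reads from 3′ ends do not grow with gene length, so this scale lowers long genes, and 7 of the 156 genes have no such value.

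Among the other inward rectifiers, 13 genes of which 10 were tested, Kcnj2 went the other way. It encodes the classical strong inward rectifier, which stabilizes the resting potential. Its levels were 1, 4 and 0 normalized counts in Col6a1+ and 116, 28 and 83 in Col6a1− CAFs, so that the groups did not overlap although the Col6a1− libraries spread widely. The log2 fold change was -4.93 (SE 0.96, limma adjusted p = 0.0169, blocked adjusted p = 0.116). It was -5.54 without Col6a1+ replicate 2 and -5.52 without Col6a1− replicate 2. No other gene of this family had a mean of at least 10.

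Of the 14 genes of 2-pore-domain channels, which carry potassium leak currents, 8 were tested. Kcnk3, an acid-sensitive leak channel of vascular smooth muscle, had 27, 87 and 178 normalized counts in Col6a1+ and 1, 14 and 3 in Col6a1− CAFs. Its log2 fold change of 3.95 (SE 0.96) passed (limma adjusted p = 0.0451, blocked adjusted p = 0.108), and Col6a1+ replicate 1 was the lowest of the Col6a1+ libraries. Its log2 fold change was 4.67 without Col6a1+ replicate 1, 3.33 without Col6a1+ replicate 3, 3.30 without Col6a1− replicate 1 and 4.75 without Col6a1− replicate 2. Gm9899, on the other strand, overlaps Kcnk3 by 450 bases and had a mean of 13 normalized counts in Col6a1+ and 0 in Col6a1− CAFs, and whether the counting used the strand is not stated. Kcnk1 and Kcnk5, both expressed by epithelia, had lower values in all Col6a1+ libraries. Kcnk1 had 127, 62 and 45 against 233, 173 and 200, and Kcnk5 had 0, 27 and 11 against 59, 71 and 55. Their log2 fold changes of -1.49 and -3.16 did not pass (limma adjusted p = 0.0878 and 0.155), and that of Kcnk5 was -1.77 without Col6a1+ replicate 1, in which it was at 0.

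Large-conductance calcium-activated channels, which brake contraction of smooth muscle, pair a pore subunit (Kcnma1) with a smooth muscle beta subunit (Kcnmb1). Kcnmb1 had 156, 92 and 146 normalized counts in Col6a1+ and 9, 19 and 1 in Col6a1− CAFs, without overlap, a log2 fold change of 4.13 (SE 0.82, limma adjusted p = 0.0182, blocked adjusted p = 0.120). Without Col6a1− replicate 2 the log2 fold change was 4.85, and without Col6a1− replicate 3 it was 3.19. Kcnma1 was not called, with 0, 18 and 7 in Col6a1+ and 21, 36 and 5 in Col6a1− CAFs. These groups overlapped, and its log2 fold change of -1.67 did not pass (limma adjusted p = 0.588) and was -0.46 without Col6a1+ replicate 1, in which Kcnma1 was at 0. The remaining genes of the activated channels, 12 in all with 10 tested, gave no call, and Kcnmb4, a beta subunit known from neurons that was singled out after its values were seen, had 0, 14 and 7 against 30, 19 and 34 (limma adjusted p = 0.286).

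Of 30 voltage-gated potassium channel pore genes, 23 were tested. Kcna5 rose and Kcnq1 fell in Col6a1+ CAFs. Kcna5, a delayed rectifier of arterial muscle, had 80, 23 and 24 normalized counts in Col6a1+ and 0, 4 and 1 in Col6a1− CAFs (log2 fold change 4.08, SE 1.01, limma adjusted p = 0.0482, blocked adjusted p = 0.159). Col6a1+ replicate 1 was its highest library and the groups did not overlap, and its log2 fold change was 4.69 without Col6a1− replicate 2. Kcnq5, of the same subfamily as Kcnq1, had 40, 10 and 20 against 0, 0 and 4, also without overlap, and did not pass (limma adjusted p = 0.0933). A pseudogene on the same strand inside Kcnq5, Gm7658, had means of 62.0 and 49.7 normalized counts, so the reads of Kcnq5 are uncertain. Kcna2 and Kcnh2, further channels of muscle, overlapped between the groups (limma adjusted p = 0.728 and 0.434). So did the auxiliary subunit gene Kcnab1 (23, 8 and 1 against 1, 6 and 3, limma adjusted p = 0.642). The silent subunits, 10 genes that act only with other pore subunits, had at most 14 normalized counts in sum in any library and no call among the 7 tested.

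The partners of these pores differed in opposite directions. Kcne4, a single-pass subunit that modifies voltage-gated channels, had 376, 197 and 252 normalized counts in Col6a1+ and 17, 38 and 9 in Col6a1− CAFs. The groups did not overlap, and the log2 fold change was 3.80 (SE 0.55, limma adjusted p = 0.00408, blocked adjusted p = 0.0754). Kcne3, the partner of Kcnq1 in colonic crypts, had 47, 26 and 13 in Col6a1+ and 348, 249 and 127 in Col6a1− CAFs (log2 fold change -3.09, SE 0.56, limma adjusted p = 0.0121, blocked adjusted p = 0.0612). Kcnq1 itself had 14, 6 and 15 against 145, 58 and 54, a log2 fold change of -2.71 (SE 0.64, limma adjusted p = 0.0399, blocked adjusted p = 0.107). For both genes the Col6a1− libraries were the 3 highest, and Col6a1− replicate 1 was the highest. The summed epithelial markers of the Col6a1− libraries were also above those of all Col6a1+ libraries. Within Col6a1− CAFs these sums were lowest in replicate 1. The part of the epithelial markers in the levels of Kcne3 and Kcnq1 was not tested.

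**Figure D2:**
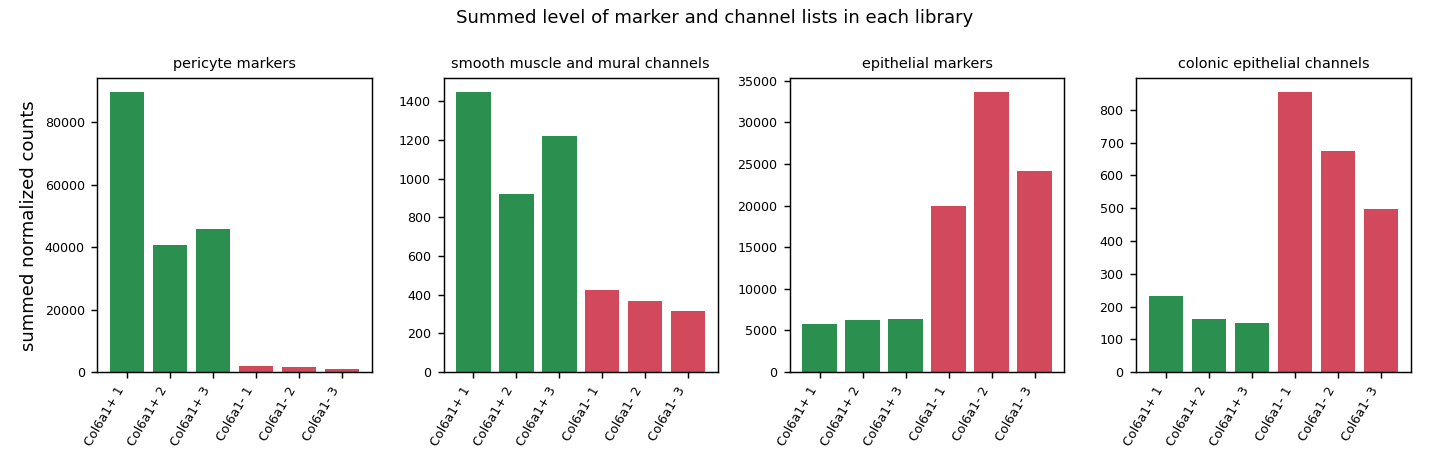
Summed normalized counts in each of the 6 libraries of 8 pericyte markers, of 20 channels known from smooth muscle and mural cells, of 10 epithelial markers and of 11 channels known from colonic epithelium, with green bars for Col6a1+ and red bars for Col6a1− CAFs. The mural channels summed to 920 to 1445 in Col6a1+ and 315 to 422 in Col6a1− CAFs, and the epithelial channels to 150 to 233 and 498 to 853.

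Voltage-gated calcium channels showed calls in auxiliary subunits and none in the 10 pore genes, of which 9 were tested. Cacna2d1, the subunit that brings the pore to the surface and binds gabapentin, had 358, 214 and 298 normalized counts in Col6a1+ and 19, 34 and 29 in Col6a1− CAFs. The groups did not overlap, and its log2 fold change was 3.37 (SE 0.41, limma adjusted p = 0.00191, blocked adjusted p = 0.0612). Cacng7, of a family that also accompanies glutamate receptors, had 152, 200 and 93 against 19, 58 and 15 (log2 fold change 2.42, SE 0.57, limma adjusted p = 0.0398, blocked adjusted p = 0.0806). The L-type pore gene of smooth muscle, Cacna1c, had 92, 66 and 121 in Col6a1+ and 34, 7 and 15 in Col6a1− CAFs. Its groups did not overlap, but its log2 fold change of 2.47 (SE 0.63) was just outside the threshold (limma adjusted p = 0.0540), within a range of 0.0178 to 0.249 over the alternatives. Dcp1b overlaps Cacna1c on the other strand and had means of 11.7 and 18 normalized counts. Cacna1g, a T-type pore gene singled out after its values were seen, had 87, 24 and 28 against 5, 6 and 11 without overlap (limma adjusted p = 0.142), whereas the T-type gene Cacna1h had 8, 3 and 5 against 22, 17 and 4 with overlap (limma adjusted p = 0.630). The beta subunits Cacnb2 and Cacnb3 overlapped between the groups (limma adjusted p = 0.866 and 0.642), and Gm13268, a pseudogene inside Cacnb2 on the other strand, had means of 551 and 509.

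Sodium channels gave 1 call among 14 genes, of which 11 were tested. Scn7a, an atypical sodium channel known from glia and neurons, had 58, 89 and 48 normalized counts in Col6a1+ and 5, 16 and 4 in Col6a1− CAFs (log2 fold change 3.00, SE 0.71, limma adjusted p = 0.0399, blocked adjusted p = 0.0901). None of 8 glial markers was called, and their sums of 63 to 93 in Col6a1+ and 70 to 132 in Col6a1− libraries overlapped. Of these markers Sox10 had 34, 4 and 1 against 0 in each Col6a1− library. The beta subunits, adhesion proteins that tune the channel, gave no call among the 4 genes tested. Scn2b had 0, 22 and 21 in Col6a1+ and 137, 114 and 148 in Col6a1− CAFs (limma adjusted p = 0.0588), with a log2 fold change of -4.06 that was -2.57 without Col6a1+ replicate 1, in which it was at 0. Scn1a, Scn4a and Scn11a were at 0 in every library.

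In the canonical TRP family, which opens downstream of phospholipase C and carries sodium and calcium, 5 of 7 genes were tested. Trpc1, which also joins other family members in mixed channels, had 83, 87 and 91 normalized counts in Col6a1+ and 17, 16 and 10 in Col6a1− CAFs (log2 fold change 2.55, SE 0.51, limma adjusted p = 0.0192, blocked adjusted p = 0.0853). Trpc6, a diacylglycerol-gated channel of smooth muscle, was found in both groups, with 113, 43 and 68 against 30, 32 and 43. Its groups touched, and its log2 fold change of 0.98 did not pass (limma adjusted p = 0.387). Trpc4 and Trpc7 were at 0 in every library.

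In the other TRP families only Trpv2 was called. Trpv2, a channel linked to stretch and membrane lipids, had 65, 92 and 81 in Col6a1+ and 10, 15 and 3 in Col6a1− CAFs, without overlap (log2 fold change 3.16, SE 0.68, limma adjusted p = 0.0261, blocked adjusted p = 0.105). Trpa1, the irritant receptor, which was singled out after its values were seen, had 74, 65 and 35 against 9, 14 and 3 and did not pass (limma adjusted p = 0.0658). Trpa1 is known from sensory neurons, and of 8 neuronal markers 1 was called higher (Tubb3, limma blocked adjusted p = 0.0612), with sums of 229 to 416 in Col6a1+ and 132 to 201 in Col6a1− libraries, whose part in its level was not tested. The values of the magnesium channel Trpm7 overlapped between the groups, with 203, 89 and 57 against 102, 95 and 142 (log2 fold change -0.14, SE 0.48, limma adjusted p = 0.893). So did those of the calcium-activated Trpm4, with 44, 27 and 25 against 29, 48 and 36 (log2 fold change -0.24, SE 0.54, limma adjusted p = 0.816), and a pseudogene on the other strand, Rpl14-ps1, lies inside Trpm4. None of the 8 melastatin genes was called.

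**Figure D3:**
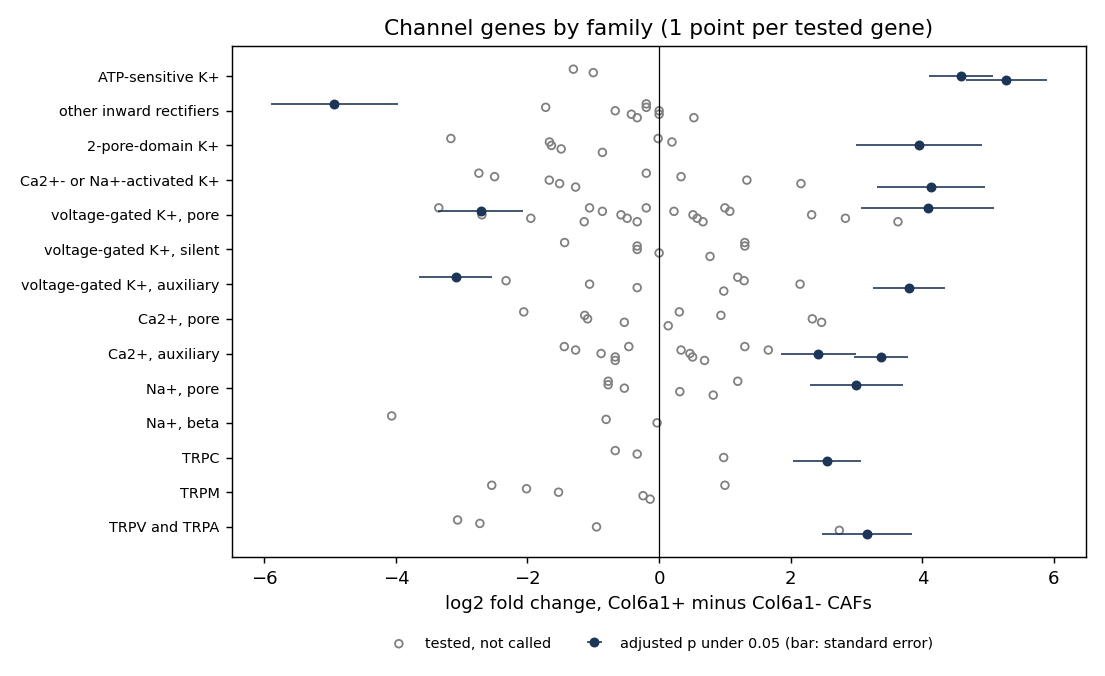
Log2 fold change (Col6a1+ minus Col6a1− CAFs) of 117 tested channel genes, 1 point per gene, by family, with filled points and standard error bars for genes with an adjusted p under 0.05 and open points for the rest. Filled points lie to the right in 9 families, and to the left for Kcnj2, Kcnq1 and Kcne3.

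By the roles assigned to the genes, 7 of 20 channels known from smooth muscle and mural cells were called higher, Cacna2d1, Kcnmb1, Trpc1, Kcnk3 and Kcna5 among them, and 1 lower (Kcnj2), with a median log2 fold change of 1.22. Of 11 channels known from colonic epithelium, 10 were tested, 2 were called lower and none higher, with a median of -1.50. Of 17 channels known from neurons and glia, 14 were tested and 1 was called higher (Scn7a), with a median of 0.44. Of the tested genes, 35% of the mural channels were called higher and 5% lower, 20% of the epithelial channels were called lower, and 7.14% of the neuronal and glial channels were called higher, against 2.66% higher and 1.96% lower over all genes tested, whose median was -0.27. Among all genes averaging at least 10 normalized counts, 5.15% were called higher and 3.67% lower. At that level were 16 of the 20 mural, 6 of the 10 epithelial and 4 of the 14 neuronal and glial channels. The lists were written with results on these libraries known, so their counts describe them and do not test them.

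Groups that did not overlap were found for 18 channel genes higher in Col6a1+ CAFs, 14.9% of those tested against 7.91% of all genes tested, and for 14 lower, 11.6% against 11.6%. Of these 32 genes, 16 were not called. Among them Kcnb2, a delayed rectifier singled out after its values were seen, lay closest to the threshold (limma adjusted p = 0.0531), with 0 in each Col6a1+ library and 10, 5 and 15 in the Col6a1− libraries, at least 3.33-fold lower. Of the tested channel genes 21 were at 0 in every Col6a1+ library, with at most 15 normalized counts in any Col6a1− library, and 9 were at 0 in every Col6a1− library, with at most 7 in any Col6a1+ library. At this depth, an absence of those genes cannot be told from a low level.

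**Figure D4:**
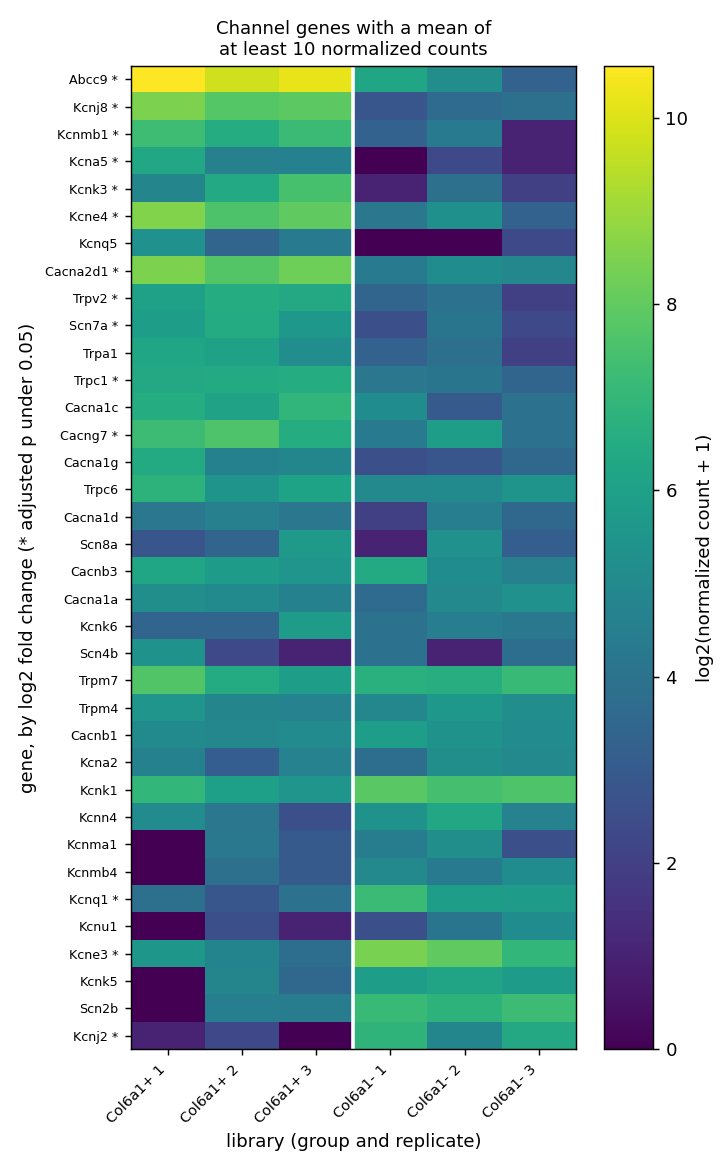
Log2 of the normalized count plus 1 of 36 channel genes averaging at least 10 normalized counts in each of the 6 libraries, ordered by log2 fold change, with asterisks on genes with an adjusted p under 0.05. Called genes lie at the top (higher in Col6a1+ CAFs, Abcc9 first) and at the bottom (Kcnj2 last), and the dark cells of Col6a1+ replicate 1 include Scn2b, Kcnk5 and Kcnma1, which were at 0 there.

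Outside these families, 46 other ion channel and calcium handling genes were examined, of which 40 were tested, 4 were called higher and 3 lower, 10% and 7.5% against 2.66% and 1.96% of all genes tested. Of the 40, 28 averaged at least 10 normalized counts, and among all genes at that level 5.15% were called higher and 3.67% lower. Higher in Col6a1+ CAFs were the connexins Gja4 and Gjc1 (log2 fold changes of 5.64 and 4.98, the latter 4.37 without Col6a1− replicate 1), the mechanosensitive channel Piezo2 (2.73) and the calcium-activated chloride channel Ano1 (1.84), which depolarizes contractile cells. Ano1 had 292, 476 and 564 normalized counts in Col6a1+ and 73, 151 and 151 in Col6a1− CAFs (limma adjusted p = 0.0270, blocked adjusted p = 0.0612). Lower were the chloride transporter gene Clcn3, the inositol trisphosphate receptor gene Itpr3 and Scnn1b, a subunit of the epithelial sodium channel (log2 fold changes of -2.39, -1.87 and -4.46). Scnn1b had 0, 1 and 0 against 42, 19 and 24, at least 9.44-fold lower, and Cog7, on the other strand, overlaps it. None of the 7 passed with the block (limma adjusted p from 0.0612 to 0.0986).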

How the data were processed

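The study sequenced 3′ mRNA libraries (QuantSeq, Ion Proton) of 3 Col6a1+ and 3 Col6a1− CAF samples. The paper counts 3 samples in total, each from a pool of tumors, so a pool may have given both subsets. The authors mapped reads with TopHat2 and Bowtie2 to mm10, counted them per gene with GenomicRanges and normalized them with DESeq through metaseqR. The log2 values that the authors deposited are the log2 of the normalized count plus 1. Converted back, 100% of them are whole numbers within a tolerance of 1e-06. The per-length signal that the authors deposited is the normalized count per base of gene model. The columns of the authors' own comparison (p-value, false discovery rate, fold change, group means) were not used.

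Groups and replicate numbers come from the labels. The log2 values of the 26402 genes that reached a total of at least 1 normalized count were fitted with group as the only term (limma 3.58.1, R 4.3.3, eBayes with trend, two-sided). Benjamini-Hochberg adjustment ran over all of these genes, and those under 0.05 were called. P-values of this fit measure the spread between libraries of a group and leave out any pairing by pool. The test was checked on simulated counts with 8-fold changes. The simulation held neither paired libraries nor a library that stood apart, so it does not cover those features of the data. Deviations from the group means correlated at 0.245, 0.125 and 0.144 between libraries of the same number over 13515 genes, all over 0.1, so the numbers were taken to pair the libraries, although Col6a1+ replicate 2 and Col6a1− replicate 3 correlated at 0.150. The fit blocked on that number is given beside each call it changes. Named genes are those called, those of the ATP-sensitive and mural lists, the 5 in each direction with the largest change among non-overlapping genes averaging at least 10 normalized counts, the 10 with the highest mean, and Scn2b, with called genes of the list of other channels. The members and lists were chosen with earlier results of these data known. Reads per library were estimated from the step of low values in Python 3.11.15 (pandas 2.3.3, NumPy 2.4.6). Plots used Matplotlib 3.10.9. Some channel and marker genes that entered the fits and counts are not reported or plotted individually here.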

Additional observations from a re-analysis of the deposited data

How the results depend on the processing

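The 16 calls kept their direction under each of the alternative fits run. The groups of these genes did not overlap, so leaving out a library could not have reversed them, and the kept direction is no separate support. The numbers of channel genes called higher and lower, of other channel and calcium handling genes called, and of all genes called were 13, 3, 7 and 1220. They were 0, 0, 0 and 28 with no filter on low values, and 0, 0, 0 and 0 with the replicate block (21, 14, 18 and 4418 at an unadjusted p under 0.05). With the block fitted to genes averaging at least 10 normalized counts, 5 channel genes were lower and 1852 genes were called in all. With a pseudocount of 0.1, 8 channel genes were higher and 1 lower. With limma-voom 7 were lower, and with array quality weights 6 were lower, 11 other channel and calcium handling genes were called and 2000 in all. By the criterion of an unadjusted p under 0.05 and a log2 change above 1 in size, 16 channel genes were lower, 16 of the other genes were called, and 3880 in all. Leaving out 1 library, with genes then at 0 dropped, gave 0 to 6 higher, 0 to 3 lower, 0 to 8 of the other genes and 12 to 895 in all. With the genes tested held at 26402, a choice made after seeing the data, these were 0 to 3, 0 to 1, 0 to 1 and 0 to 264 (188 without Col6a1− replicate 3). Library totals in place of size factors gave 13 higher and 4 lower. The cause of these changes was not tested.

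Of the genes that were not called, 3 changed direction without 1 of the libraries. On the log2 scale, the difference of Kcna2 ranged from -0.91 to 0.015 (positive without Col6a1+ replicate 2) and that of Cacnb2 from -0.67 to 1.94 (-0.19 without Col6a1+ replicate 2, -0.22 without Col6a1+ replicate 3, -0.67 without Col6a1− replicate 3). That of Trpm7 ranged from -0.64 to 0.27 (0.27 without Col6a1+ replicate 3, 0.038 without Col6a1− replicate 3). Of the uncalled genes described above, Cacna1c, Scn2b, Kcnk1, Kcnq5, Kcnb2 and Trpa1 passed under some alternatives. So did Kcnh3, Trpv3 and Trpm2, which had lower values in Col6a1+ CAFs and low levels. Of the 121 channel genes tested, 28 had no library above 3 normalized counts, so that a difference in them was not detectable at this depth.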
